A study of Mus musculus with 96 samples.

Results

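The first contacts of GATA6 with chromatin were measured as the change in GATA6 chromatin immunoprecipitation signal between untreated mouse embryonic stem (ES) cells and the same cells after 8 h of doxycycline (Dox). All 42403 GATA6 regions of the deposited table entered the comparison, with 7 of the 96 libraries of the series. These were 1 GATA6 library before Dox, 2 GATA6 libraries at 8 h, 2 input libraries before Dox and 2 input libraries at 8 h, where input is sheared chromatin sequenced without antibody. All cells were KH2 ES cells of the C57BL/6 x 129/Sv strain, and the untreated cells carried the same Dox-inducible GATA6 cassette as the treated ones. The cassette encoded GATA6 with an HA tag, treated cells received 1 µg/mL Dox, and all were grown in serum and LIF on feeder cells that were removed by adsorption before fixation. Which of the clones made by the study gave the chromatin is not given in the sources used here. The pairs of libraries were separate chromatin preparations, so that the values below measure the spread between preparations of a cell line.

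GATA6 is a zinc finger transcription factor (TF) that binds the letters GATA and drives ES cells toward primitive endoderm (PrE), the layer of the early embryo that sits beside the epiblast and builds a basement membrane. It is regarded as a pioneer factor, a protein that can engage DNA wrapped on nucleosomes. Undifferentiated ES cells are held in their state by pluripotency TFs (PTFs) such as OCT4, SOX2 and ESRRB. PrE cells and the cells of the epiblast normally express these opposing sets of factors, and GATA4, GATA6 and SOX17 are the best known PrE regulators.

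Regions were classed as the deposited table classes them. The motif class goes by the best match to the GATA6 matrix in the region, high with a score of 12 to 15.2 (11381 regions), mid from 9 (13971 regions), low from 6.23 (12700 regions) and none without a match (4351 regions). The sequences of a few regions show what these classes look like on the DNA, and each returns below. The first group holds strong targets with a match, shown 5′ to 3′ on the strand of the match in 61 bases of mm10, with the 13 bases of the best match in capitals.
Lamb1 region, chr12:31229369-31229429, minus strand: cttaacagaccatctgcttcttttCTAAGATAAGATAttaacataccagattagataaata
Gata4 intron, chr14:63231333-63231393, plus strand: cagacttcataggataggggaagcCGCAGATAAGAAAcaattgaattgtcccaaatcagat
Pdgfra region, chr5:75146619-75146679, plus strand: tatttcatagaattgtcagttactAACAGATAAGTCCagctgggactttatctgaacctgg
Sox17 region, chr1:4474654-4474714, minus strand: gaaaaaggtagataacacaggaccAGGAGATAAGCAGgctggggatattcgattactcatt
Esrrb intron, chr12:86480751-86480811, plus strand: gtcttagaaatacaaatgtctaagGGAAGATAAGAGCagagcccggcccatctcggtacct
Actb region, chr5:142926326-142926386, minus strand: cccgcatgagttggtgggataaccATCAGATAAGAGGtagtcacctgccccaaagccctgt
Pou5f1 region, chr17:35504063-35504123, plus strand: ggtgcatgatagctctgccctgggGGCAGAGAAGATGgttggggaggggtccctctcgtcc

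The second group holds the strongest target without a match in each accessibility class and the region that was highest before Dox, shown on the plus strand around the summit of the GATA6 signal, with GATA in capitals on either strand. The targets without a match each held a bare GATA near the summit, whereas the Esrra window held none.
Dennd2a region, chr6:39445941-39446001: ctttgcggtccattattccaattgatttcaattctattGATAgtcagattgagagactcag
Ptch1 intron, chr13:63569339-63569399: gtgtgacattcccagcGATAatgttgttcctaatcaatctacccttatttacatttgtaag
Gm9964 region, chr11:79289413-79289473: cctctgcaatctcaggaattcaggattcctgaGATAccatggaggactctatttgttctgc
Esrra exon, chr19:6920355-6920415: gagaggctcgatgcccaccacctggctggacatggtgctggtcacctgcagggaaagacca

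Before Dox the regions held no more GATA6 reads than input reads. The deposited values are reads per 1000000 reads of a library (RPM), and whole reads could be recovered from them for each library. The only GATA6 library before Dox had 6.12 M reads, of which 1.72% fell in the regions, with a median of 0.327 RPM, and 9705 regions (22.9%) had no read. The input libraries before Dox had 1.87% and 2.19% of their reads there and medians of 0.340 and 0.295 RPM. At 8 h the deeper GATA6 library (69.4 M reads) had 12.3% of its reads in the regions and a median of 1.44 RPM, and the shallower library (11.5 M reads) 11.1% and 1.4 RPM. The input libraries at 8 h remained at 1.91% and 1.77%. Both GATA6 libraries at 8 h thus lay above every other library, by 7.13 and 6.43 times the summed signal before Dox. They resembled each other closely, since 96.5% of regions were within 2-fold between them. A read before Dox was worth 0.163 RPM and the median region had 2, so that single low values before Dox carry large counting error.

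**Figure D1:**
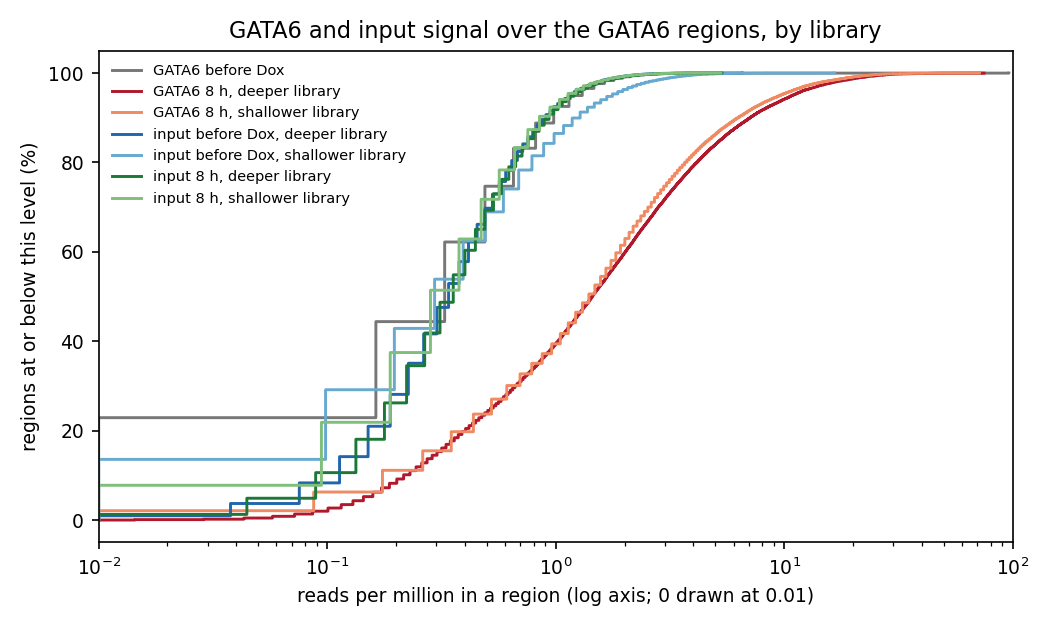
Cumulative distribution of the recovered signal (x axis, RPM per region on a log axis, 0 drawn at 0.01) over 42356 regions (y axis, percent of regions at or below that level) for each of the 7 libraries. The GATA6 curves at 8 h lie to the right of all others, with medians of 1.44 and 1.4 RPM, and the GATA6 curve before Dox runs among the inputs.

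Most regions gained GATA6 within 8 h. The median deposited value went from 0.490 RPM before Dox to 1.49 RPM at 8 h, a median difference of 1.43 in log2 of the RPM plus a pseudocount of 0.163, and 25972 of 42403 regions (61.3%) were at least 2-fold higher on that scale. No region was so in the deposited input (0.0%), whose value before Dox also averages in the 8 h input libraries. With only the input libraries made before Dox set against those of 8 h, 463 regions (1.09%) were. In edgeR's quasi-likelihood test on the recovered reads, with Benjamini-Hochberg adjustment over 42356 regions, 25362 regions (59.9%) rose and 144 (0.34%) fell. The same test of input called none higher, with 888 at an unadjusted p under 0.05, and 17 lower (0.0401%). The rise exceeded the change of input in 18003 regions (42.5%) and was below it in 65 (0.153%) in a test of that difference. Against input at 8 h, GATA6 was higher in 30548 regions (72.1%) and lower in 95 (0.224%).

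These calls rest on scaling to the whole library and on a lone library before Dox, assumed to vary like the pair at 8 h, and the regions were called by the authors partly on the 8 h libraries themselves. With TMM factors, which set the bulk of these regions to no change, the median log2 fold change was 0.62 in place of 2.72, and 3521 regions rose while 1371 fell, so that 72.0% of calls were upward in place of 99.4%. Against input at 8 h the TMM counts were 7847 higher and 8068 lower, so that the general rise is relative to library size.

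**Figure D2:**
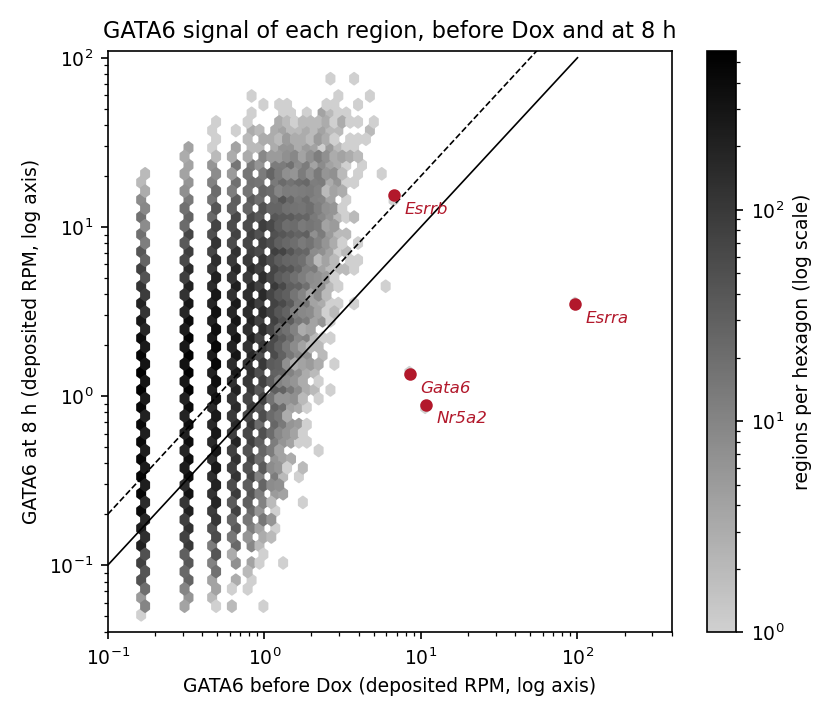
Deposited GATA6 signal of every region before Dox (x axis) and at 8 h (y axis), both in RPM on log axes, with darker hexagons for more regions, a solid line at equality and a dashed line at a 2-fold rise. Of all regions 61.3% were at least 2-fold higher at 8 h, while the marked Esrra, Nr5a2 and Gata6 regions lie below equality and the marked Esrrb region above it.

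The gain was uneven. The 4236 strongest regions of a library (10% of all) held 45.1% and 44.1% of the GATA6 reads of all regions at 8 h, against 34.3% before Dox and 29.3% to 39.8% in the inputs. Between the 8 h libraries the order of the regions was nearly the same, with a Spearman correlation of 0.964 across regions, which share width and base composition. Before Dox the correlation with the 8 h libraries was 0.456 and 0.454, close to that with input before Dox (0.533 and 0.434).

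Accessibility before Dox, measured by the authors from short ATAC-seq fragments, sorted the regions into 26003 closed, 13248 moderate and 3152 accessible ones. Closed regions made up 49.0% of the regions that rose and 79.8% of those that did not. Their median at 8 h was 0.926 RPM from 0.327, whereas moderate regions reached 2.60 from 0.653 and accessible regions 2.61 from 0.653. In edgeR 47.8% of closed, 79.8% of moderate and 76.1% of accessible regions rose, beside 59.9% of all. The median log2 change was 0.98 in closed, 1.94 in moderate and 1.77 in accessible regions.

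The order of the classes depended on the measure. Summed over all its regions, the signal of the closed class was 6.45 times that before Dox in the deeper and 5.86 times in the shallower library, close to the accessible class at 6.57 and 5.95 times, and that of moderate regions was 8.03 and 7.18 times. Input was also lower in closed regions at 8 h (median 0.325 RPM against 0.660 in accessible ones). The mean RPM of the deeper GATA6 library over the mean of both input libraries at 8 h was 6.00 in closed and 6.36 in accessible regions. Before Dox the ratio of the GATA6 library to the mean of both input libraries was 0.994 in closed and 0.606 in accessible regions. A rise beyond the change of input was called in 29.3% of closed, 61.8% of moderate and 70.3% of accessible regions. The shallower input library before Dox was uneven, its strongest 10% of regions holding 39.8% of its region reads against 29.3% in the deeper one. How far these ratios and calls rest on it was not tested. Among regions above the median of the mean GATA6 signal the change was 2.29 in closed and 2.03 in accessible regions, but this filter contains the 8 h value and kept 35.3% of closed and 75.8% of accessible regions, so that it favours closed regions with a gain.

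The GATA6 motif class moved with the gain. The median at 8 h went from 0.920 RPM in regions without a match through 1.21 with a low and 1.56 with a mid score to 2.16 RPM with a high score, while the medians before Dox were 0.327 without a match and 0.490 in each of the other classes. The summed signal in high motif regions was 9.30 and 8.32 times that before Dox in the deeper and shallower libraries, and 4.14 and 3.87 times in regions without a match. The shares that rose in edgeR were 72.7% of high, 61.3% of mid, 51.8% of low and 45.3% of motifless regions.

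Open regions held fewer strong motifs. Of accessible regions 9.42% had a high score and 28.6% had no match, against 31.1% and 6.95% of closed regions. Within each accessibility class the order by motif held. Accessible regions went from 1.61 RPM without a match to 5.55 RPM with a high score, moderate regions from 1.31 to 4.09, and closed regions from 0.347 to 1.58. Closed regions without a match had a median log2 change of 0.17 in the deposited values, 2.88 and 2.73 times the summed reads before Dox, and 22.5% called as risen, whereas 65.5% of closed regions with a high motif rose. The Spearman correlation of the best score with the 8 h level was 0.325 across 2251 accessible, 0.315 across 11604 moderate and 0.339 across 24197 closed regions, which is a description across regions and not across replicates.

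**Figure D3:**
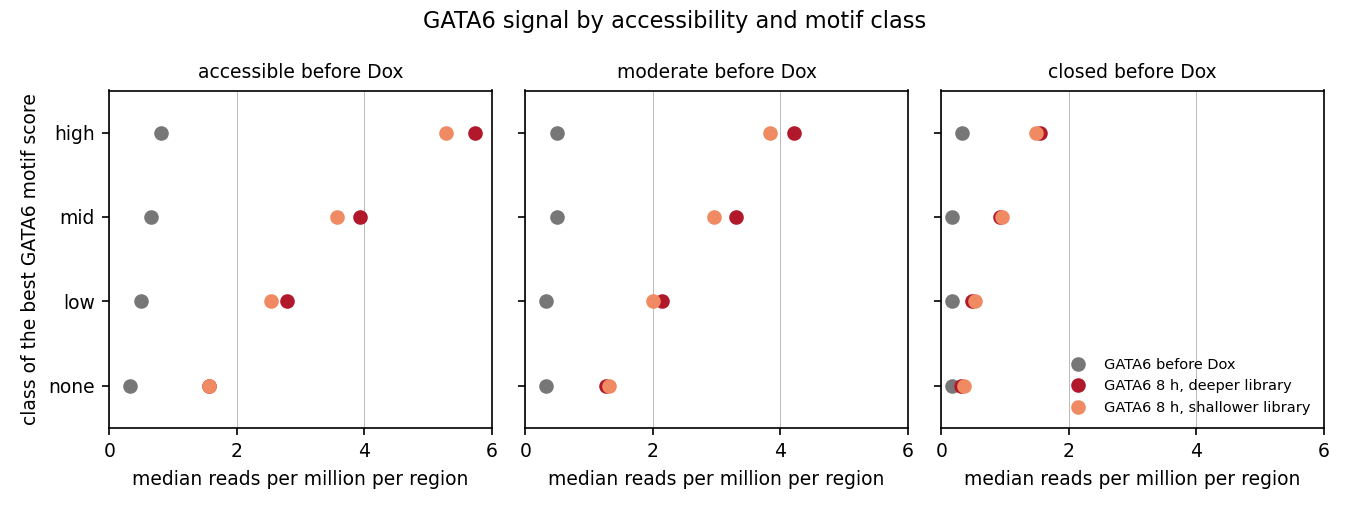
Median recovered GATA6 signal (x axis, RPM per region) by the class of the best GATA6 motif (y axis) in accessible, moderate and closed regions, with grey points for the library before Dox and red and orange points for the deeper and shallower libraries at 8 h. Signal at 8 h falls from high to no motif in each panel, and in closed regions without a match the points lie closest, at 0.163 RPM before Dox and 0.302 and 0.349 RPM at 8 h.

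Region width moved with these differences. Peaks with a high motif were wider (median 612 bases) than those without a match (378 bases), and the correlation of width with the 8 h level was 0.692. Among the regions of 400 to 600 bases, the order by motif over all accessibility classes was no longer monotonic, with 1.72 RPM for high, 1.47 for mid, 1.37 for low and 1.44 for none. Within this width the motif separated closed regions, from 0.50 RPM without a match (487 regions) to 1.5 RPM with a high score (2338 regions), a ratio of 3.19 in the deeper and 3.20 in the shallower library. In moderate and accessible regions the same ratio was 1.27 and 1.24 in the deeper library and 1.20 and 1.27 in the shallower one. The difference between these ratios has no test over samples. The number of matches also went with width. Regions with 6 or more matches (median width 1159 bases) had a median of 5.16 RPM at 8 h against 1.13 with a single match, while among regions of 400 to 600 bases the values were 1.4 and 1.59 RPM. In closed regions of that width the level still followed the number, with 0.764 RPM for a single match, 1.08 for 2 to 5 and 1.33 RPM for 6 or more.

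The level also differed with the letters beyond the core. In the 13-base match the letters GATA stand at positions 5 to 8, counted from 1 at its 5′ end, as the sequences above show. Regions whose best match read GATAAG (19746) had a median of 1.90 RPM at 8 h, those with GATAA and another base (9164) 1.32, and those with GATA not followed by A (1896) 1.08. In closed regions with a single match, the order was the same, with 0.775 RPM and 43.5% risen for GATAAG, 0.492 and 32.7% for GATAA, and 0.341 and 21.5% for GATA alone. Matches without GATA at these positions, like the one at Pou5f1, had a median of 0.398 RPM there and 25.1% rose. The strand of the match made no visible difference (1.58 and 1.59 RPM). Searched on either strand within 100 bases of the summit, GATA was present in 92.9% of all regions and in 77.8% of those without a match, and GATAAG in 43.1% and 2.37%. Such a short word is common in windows of this length, and among regions without a match those with GATA had the lower median at 8 h (0.854 against 1.14 RPM).

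Histone states, which the authors derived from ENCODE data on ES cells, spanned a wider range of levels than the fewer accessibility classes did. The states overlapped with accessibility. Closed regions made up 9191 of the facultative heterochromatin and 7446 of the naive regions below, but only 133 of the active enhancers. Histone state is thus no separate ordering, and its order within an accessibility class is not given here. Active enhancers (4730 regions) reached a median of 3.68 RPM at 8 h and 86.4% of them rose, followed by primed enhancers (7146) at 2.33 RPM and 75.6%, promoters (2918) at 2.15 RPM and 68.2%, and poised enhancers (6185) at 1.64 RPM and 65.5%. Regions in the state that the table names naive (7631) had 1.07 RPM, constitutive heterochromatin (4318) 0.937 and facultative heterochromatin (9475) 0.658 RPM, with 51.7%, 50.1% and 39.7% risen. Promoters had the lowest ratio of summed signal to that before Dox, 5.42 and 5.05, from a median of 0.653 RPM before Dox. The ratio was 5.49 and 5.16 in facultative heterochromatin and 8.39 and 7.53 in active enhancers. Relative to the mean of both input libraries the gain of promoters exceeded that of facultative heterochromatin. GATA6 over input was 0.533 and 0.940 in these before Dox and 5.07 and 5.14 at 8 h in the deeper GATA6 library. A rise beyond the change of input was called in 66.6% and 24.8% of them. These values, too, rest partly on the uneven shallower input library before Dox. Among regions of 400 to 600 bases, constitutive heterochromatin moved up to 1.54 RPM and 62.9% risen, between the enhancer states and the naive state at 0.782 RPM. The motif separated regions of facultative heterochromatin too, with 58.1% risen where the score was high and 14.4% where no match was found.

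Regions that OCT4, SOX2 or ESRRB already occupied before Dox took up the most GATA6 of the PTF classes. The PTF class comes from peak calls of these factors. The 8841 regions with a PTF peak before Dox went from a median of 0.653 to 4.87 RPM, with 10.8 and 9.41 times the summed signal, and 94.8% were called as risen. Regions where a PTF peak appeared only after Dox (7038) had 1.81 RPM and 64.7%, and the 26524 regions with no PTF peak 0.927 RPM and 47.0%. Of all regions that rose 32.9% had a PTF peak before Dox, against 2.68% of those that did not. At a width of 400 to 600 bases the medians were 2.52, 1.29 and 1.23 RPM.

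Accessibility did not order these regions in the same way. Closed regions with a PTF peak before Dox (1872) had a median of 6.63 RPM at 8 h, higher than moderate (4.79) and accessible (3.98) regions of that class, and 16.4 and 14.0 times the summed signal before Dox. Closed regions without any PTF peak (19041) had 0.651 RPM. Where a closed PTF region also held a high motif (767 regions) the median was 8.88 RPM and 99.2% rose, while closed regions with neither a PTF peak nor a match (1447) had 0.304 RPM with 16.8% risen, and 2.33 and 2.28 times the summed reads before Dox. The 67 closed PTF regions without a match still reached 2.09 RPM, and 97.0% of them rose. The closed PTF regions were wide (median 922 bases), and among those of 400 to 600 bases closed (2.38), moderate (2.49) and accessible (2.65 RPM) PTF regions no longer followed that order. Within that width closed PTF regions still stood above closed regions without a PTF peak (0.810 RPM).

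Motifs of other factors and position were also set against the 8 h level. Regions with a high OCT4:SOX2 motif had a median of 3.21 RPM at 8 h against 0.876 without one, and those with a high ESRRB motif 3.01 against 1.17. For the SOX17 motif the values were 1.74 and 1.22 RPM. Distance to a transcription start site changed little, with 1.65 RPM within 1 kb and 1.38 RPM beyond 50 kb. Repeats were counted only within 100 bases of the summit, not over the whole region. Regions with over 75% of this window in soft-masked repeats (1927) had 1.83 RPM and 75.6% risen. Regions with no repeat in the window had 1.43 RPM and 57.4%.

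The 10 strongest regions at 8 h all had a PTF peak before Dox, 9 of them a high motif, and 2 were closed before Dox. Of the 42356 regions with recovered reads, 8794 had such a peak, 11351 a high motif and 25995 were closed. The 10 were picked by their 8 h value and were 1958 to 5250 bases wide. Width went with the 8 h level (correlation 0.692), so that the ranking also reflects width. The highest, intergenic and 137 kb from the start of Fndc3a (chr14:72843659-72848909), had a deposited value of 75.2 RPM at 8 h from 2.61, and its reads could not be split between the libraries. A region 2.42 kb from Rhof (chr5:123134464-123138762) had 3.76 RPM before Dox and 74.9 and 71.6 RPM at 8 h, and its input was also high, 6.57 and 14.7 RPM before Dox and 5.12 and 5.28 RPM at 8 h. Near Lamc1, which encodes a laminin chain of the basement membrane, a region of moderate accessibility (chr1:153376278-153378779) had 1.14 RPM before Dox and 58.0 and 51.8 RPM at 8 h. At Rhof and Lamc1 the step from before Dox was larger than the difference between the 8 h libraries. A closed region in an intron of Adora1 (chr1:134225648-134227606) in facultative heterochromatin rose from 0.817 to 55.2 and 53.8 RPM. Regions 81.6 and 90.5 kb from the start of Tbx3, a T-box factor that supports pluripotency, took 2 of the 10 places with 57.5 and 52.4 RPM deposited. Within the 50 kb used for the gene lists below, the highest Tbx3 region had 13.3 RPM.

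Strong targets without a match are shown among the sequences above. Near Dennd2a an accessible region had 1.96 RPM before Dox and 22.7 and 21 RPM at 8 h. In an intron of Ptch1, the Hedgehog receptor, a region of moderate accessibility went from 0.817 to 21.5 and 18.5 RPM. A closed region near Gm9964 went from 0.817 to 13 and 14.7 RPM. All 3 had a PTF peak before Dox, and being picked as the highest at 8 h they are given as values without a test.

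All 16 PrE regulators and markers had a region that was at least 2-fold higher at 8 h, as did every gene with a region in the other lists below. The 190 PrE regions within 50 kb of a start site had a median of 0.490 RPM before Dox and 1.4 RPM at 8 h, beside 1.49 for all regions, with a median log2 change of 1.25 beside 1.43. At least 2-fold higher values at 8 h were seen in 107 of them (56.3% beside 61.3% of all), and in edgeR 106 rose and 1 fell. No region of the list was 2-fold higher in the deposited input, but neither was any of all regions. The deposited value before Dox averages in the 8 h input libraries, so that such a rise could hardly appear. Most of these regions were closed before Dox (143, or 75.3%), and 32 had a PTF peak before Dox. For each gene the region highest at 8 h is described here and in the lists that follow, so that its p describes a region picked for its 8 h value and is no independent evidence of a gain.

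The strongest region of the list lay 35.6 kb from the start of Lamb1, which encodes the beta chain of laminin (chr12:31227881-31230421), and nearer to Gm6993 (11.2 kb). It had 4 reads before Dox, or 0.653 RPM with a 95% exact Poisson interval of 0.178 to 1.67, and 72.9 and 51.3 RPM at 8 h, against 1.38 to 2.54 RPM in the 4 input libraries. The 8 h values lay far above both, 112 and 78.5 times the value before Dox (edgeR log2 fold change 6.57 ± 0.57 SE, adjusted p = 2.45e-26), although the region was closed. It had a PTF peak before Dox, as had the Pdgfra and Gata4 regions that follow, while the Sox17 region had one only after Dox. At Pdgfra, the receptor that marks PrE cells, a closed region of facultative heterochromatin 5.62 kb from the start had 0.817 RPM before Dox and 33.3 and 25 RPM at 8 h (5.17 ± 0.52 SE, adjusted p = 4.16e-20). In an intron of Gata4, a GATA factor activated in PrE, a closed region held 13 matches and had 1.80 RPM before Dox and 16.4 and 19.0 RPM at 8 h (3.29 ± 0.44 SE, adjusted p = 1.99e-12). The region of Sox17, an endoderm HMG-box factor, was less strongly bound. It lay 18.9 kb from the start, was closed, and had 2.12 RPM (1.13 to 3.63) before Dox and 7.17 and 8.20 RPM at 8 h (1.83 ± 0.42 SE, adjusted p = 5.84e-05), with an adjusted p of 0.0458 for its rise beyond that of input.

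The top regions within 50 kb of basement membrane genes gained signal alongside those of the regulators. At least 2-fold higher values were seen in 9 of 20 regions at Lama1 and 7 of 13 at Lamb1. At Col4a1 and Col4a2 they were seen in 10 of 16 and 8 of 15. Among all regions this share was 61.3%, so that these loci did not stand out by it. A region 43.0 kb from the start of Lama1, which encodes a laminin alpha chain, rose from 1.31 to 23.4 and 20.0 RPM. The start of Lrrc30 was nearer to it (21.5 kb). At Col4a1 and Col4a2, neighbours that encode collagen IV chains, the same intronic region of Col4a1 rose from 1.14 to 21.4 and 20.4 RPM. The endocytic receptors of PrE, Cubn (0.980 to 17.1 and 16.1 RPM) and Lrp2 (1.96 to 15.2 and 15.2 RPM), had theirs within introns near the start. Among TF genes, the top regions of Hnf4a (1.63 to 16.7 and 15.2 RPM) and Sox7 (0.653 to 14.9 and 12.8 RPM) exceeded that of Foxa2 (0.490 to 7.81 and 5.67 RPM). The Hnf4a region lay 43.5 kb from the start of that gene and nearer to Fitm2 (9.33 kb). Dab2 and Sparc had the lowest top regions, 6.86 and 5.67 RPM and 6.16 and 6.02 RPM at 8 h. At Dab2 the rise was not separable from the change of input (edgeR, adjusted p = 0.0921).

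**Figure D4:**
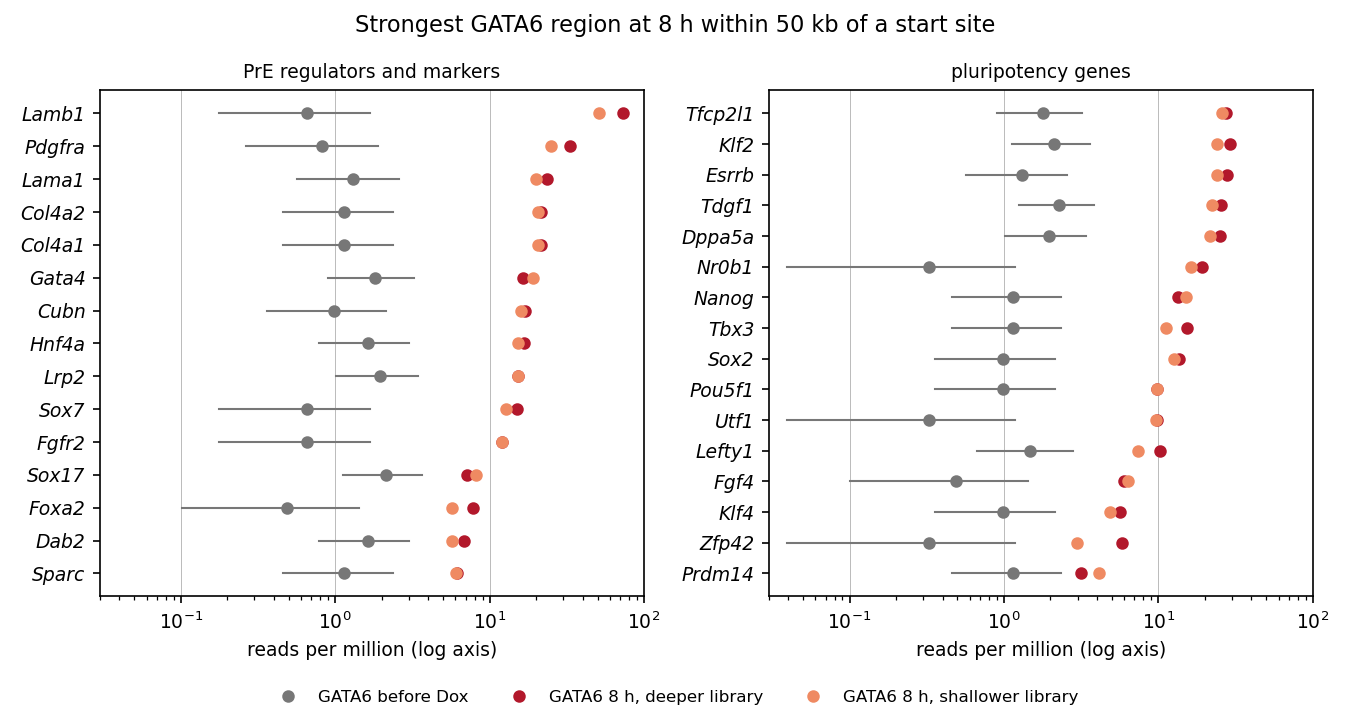
Signal of the region with the highest GATA6 value at 8 h within 50 kb of a gene (x axis, RPM on a log axis) for PrE genes (left) and pluripotency genes (right), with grey points and 95% exact Poisson intervals before Dox and red and orange points for the deeper and shallower libraries at 8 h. Col4a1 and Col4a2 share a region. The 8 h points lie to the right of the intervals for all genes shown, from Lamb1 at 72.9 and 51.3 RPM to Prdm14 at 3.17 and 4.10 RPM.

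Regions within 50 kb of pluripotency genes gained signal at 8 h as well. The 111 regions of these 16 genes had medians of 0.653 RPM before Dox and 3.02 at 8 h, with a log2 change of 1.93. In 91 regions (82.0% beside 61.3% of all) the value at 8 h was at least 2-fold higher, and in edgeR 88 rose and 1 fell. Of these regions 25 were closed, and 47 (42.3%) had a PTF peak before Dox, against 16.8% of the PrE list, so that the lists differ in the classes that went with a stronger gain above.

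The top region of Tfcp2l1, a factor of the naive pluripotent state, had 1.80 RPM before Dox and 27.6 and 25.8 RPM at 8 h. The intronic region of Esrrb, whose sequence carries a high motif and 18 matches in all, had 1.31 RPM (0.564 to 2.57) before Dox and 27.8 and 23.8 RPM at 8 h (4.31 ± 0.48 SE, adjusted p = 1.91e-17). A region 47.7 kb from Klf2, and nearer to Ap1m1 (18.4 kb), had 2.12 RPM and then 29.1 and 24.0 RPM. Top regions of the core factors lay below these. Over all regions of a gene the median at 8 h was 7.52 RPM for Pou5f1, 3.67 for Nanog and 2.49 for Sox2. It was 8.38 for Klf2, 6.60 for Esrrb and 2.12 RPM for Tfcp2l1, so that the order held for top regions only. The strongest region assigned to Nanog lay 35.1 kb from its start, in the promoter state and 0.102 kb from a start of the neighbour Slc2a3. It had 1.14 RPM before Dox and 13.4 and 15.2 RPM at 8 h. At Sox2 the values were 0.980 RPM and 13.7 and 12.6 RPM, and at Pou5f1, which encodes OCT4, 0.980 RPM and 9.81 and 9.77 RPM. The adjusted p for these was 1.79e-12, 1.71e-12 and 6.37e-10. In the gene body of Nr0b1, an X-linked nuclear receptor gene, 2 reads before Dox (0.327 RPM) became 19.3 and 16.3 RPM. Prdm14, a regulator of naive pluripotency, had the weakest top region with 1.14 RPM before Dox and 3.17 and 4.10 RPM at 8 h (1.59 ± 0.52 SE, adjusted p = 0.00463). Its rise was not separable from the change of input (edgeR, adjusted p = 0.221). Without the shallower library, with 1 library a group and the spread taken from the input libraries, its log2 fold change was 1.47 and its adjusted p 0.086.

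Regions near genes outside both programmes also gained signal. The 29 regions at 8 of 10 genes of other lineages had a median of 1.98 RPM at 8 h, and 25 were at least 2-fold higher (86.2% beside 61.3% of all), while Myod1 and Pax6 had no region within 50 kb. Of the 29 regions 37.9% were closed, and of those near widely expressed genes below 17.5%, against 75.3% of the PrE list. These lists, too, thus differ in the classes that went with a stronger gain. Closed DNA in an intron of Gata1, the blood GATA factor, had no read before Dox, where the floor of 3 reads is 0.490 RPM, and 10.8 and 9.77 RPM at 8 h, at least 22.0-fold and 19.9-fold higher than that floor. At T, the mesoderm T-box gene, a region rose from 0.817 to 11.5 and 11.7 RPM. Another, 25.2 kb from Eomes and nearer to Golga4 (2.17 kb), rose from 0.327 to 7.49 and 8.38 RPM. Near 8 widely expressed genes 30 of 40 regions (75% beside 61.3% of all) were at least 2-fold higher, with a median of 2.20 RPM at 8 h. The strongest of these lay 19.6 kb from Actb, which encodes beta-actin, with a high motif and a PTF peak after Dox only, and went from 1.47 to 27.1 and 27.6 RPM. The region assigned to Ppia, a cyclophilin gene, lay 27.4 kb from the start of that gene, in an intron of H2afv. It had 0.490 RPM before Dox and 2.98 and 1.92 RPM at 8 h (edgeR, adjusted p = 0.00057), with an adjusted p of 0.413 for the rise beyond input. Without the deeper library, with the spread again from input, its log2 fold change was 1.95 and its adjusted p 0.0776.

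Regions that fell were few and mostly rested on a handful of reads. Of the 144, 134 were closed, beside 25995 of all 42356 regions tested. Under 10 reads before Dox were found in 132, with a median of 5 among those, and 10 or more in 12. Such low counts were general, since only 995 of all tested regions (2.35%) had 10 or more reads. Of the 4 regions that fell from 20 or more reads, 3 lay in exons of genes that encode TFs. An exon of Esrra, which encodes an orphan nuclear receptor (chr19:6919649-6920555), had 589 reads or 96.2 RPM before Dox and 3.20 and 3.67 RPM at 8 h, with 0.604 and 1.18 RPM in the input libraries before Dox. It was the highest value in any of these libraries among the 42356 regions with reads recovered for every library. An exon of Nr5a2, another nuclear receptor gene (chr1:136940442-136941033), had 10.6 RPM before Dox and 1.07 and 0.611 RPM at 8 h. The exon region of Gata6 itself (chr18:11054007-11055241) had 8.33 RPM before Dox and 1.11 and 1.48 RPM at 8 h, but the shallower input library before Dox had 16.6 RPM there and the deeper one 1.17, and its change was not separable from that of input (edgeR, adjusted p = 0.694). A Trim30a intron, the remaining region with at least 20 reads before Dox, had 6.04 RPM and then 2.33 and 6.28 RPM, so that its groups overlapped, and without the deeper library its log2 fold change was 0.056 in place of -0.78.

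The share that rose did not follow the reads before Dox evenly, with 61.6% at 0 reads, 54.6% at 1 to 2, 59.95% at 3 to 5 and 71.8% at 6 to 9 reads. Of the 995 regions with 10 or more reads before Dox 85.1% rose, and their median width was 1522 bases against 379 in the 9705 with none. Only 8 of the 995 exceeded both inputs before Dox by more than 5-fold. The intronic region near the start of Esrrb (chr12:86470210-86471784), with a low motif score, had 6.53 RPM before Dox, 1.74 and 3.34 RPM in input, and 15.9 and 14.7 RPM at 8 h, a smaller log2 fold change (1.24 ± 0.33 SE, adjusted p = 0.000575) than the other Esrrb region. The regions named here were picked by their level or their gene, so that they describe the strong end of the gain rather than its average.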

How the data were processed

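GATA6 ChIP and input libraries of mouse ES cells were compared at 8 h of Dox and before it. The authors trimmed reads with cutadapt, aligned them to mm10 with Bowtie2, kept those with a mapping quality above 30, removed duplicates with SAMtools using unique molecular identifiers, and called GATA6 regions with MACS2 over the whole time course, keeping peaks found in all replicates. Versions of the aligner, trimmer and peak caller are not given in the sources used here. The deposited values are RPM (reads per 1000000 reads of a library) per region, pooled by the authors into a single value per condition. The motif classes rest on the deposited FIMO score of the best match in each region, computed by the authors.

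Each deposited value was found to be a mean over libraries in which 1 read per library had been added. Whole read counts were recovered from the steps between the deposited values for 42356 of 42403 regions (99.9%), together with the depth of each library, which was 22.5 M and 10.6 M reads for input at 8 h and 26.5 M and 10.2 M reads for input before Dox. Values named per library are recovered reads without the added read, and values named deposited contain it. The deposited input column before Dox averaged 6 libraries, of which 4 were those of input at 8 h and at 16 h. The recovered input libraries before Dox therefore served as background per library.

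Log2 changes used a pseudocount of 0.163 RPM, the 5th percentile of the GATA6 values. Reads were tested with edgeR 4.0.16 (quasi-likelihood, R 4.3.3), with library sizes set to the recovered depths, no filter on low counts and Benjamini-Hochberg adjustment over all regions, at a threshold of 0.05. A region "rose" or "fell" by that test. This is an alternative to the description of the pooled values, since the deposited unit is RPM. Scripts were tested on simulated data. Regions were assigned to genes by a summit within 50 kb of a start site in GENCODE M21. For each gene of the lists the region highest at 8 h was named, together with the 10 regions highest at 8 h, the 10 highest before Dox and the highest per accessibility class with a high or no motif, and the text gives a selection of these. A gene of the PrE list is not reported here by name or in the plot of loci, but is included in the counts of that list. Folds of a class compare summed reads. Intervals are exact Poisson intervals at 95% and, like the floor of 3 reads, cover counting error only. Sequences were read from RefSeq's copy of the mm10 genome (GRCm38). Members, classes and lists were chosen with earlier results of these data known. In all, 54 value columns of other conditions, other antibodies or other assays were not used. The classes that the authors built from GATA6 values over time, which contain the 8 h values, were not used either. Alternatives were other pseudocounts, scalings, filters, TMM factors, DESeq2 1.42.0 and leaving out libraries.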

Additional observations from a re-analysis of the deposited data

How the results depend on the processing

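The median log2 change of GATA6 (1.43) was 0.58 with a 10 times larger and 1.72 with a 10 times smaller pseudocount, 1.57 after subtracting input, 2.25 in regions above the median signal, 1.02 when scaled on the lowest decile, 1.41 without either 8 h library, and 1.87 without the added read. The share with a 2-fold rise (61.3%) was 29.9% with the larger pseudocount. The difference between high and no motif (0.98) was 0.53 with the larger pseudocount, 0.65 above the median signal and 0.43 at 400 to 600 bases. That between accessible and closed regions (0.79) was 0.54 with the larger pseudocount, 0.59 without the added read and 0.61 at 400 to 600 bases, and it reversed to -0.26 above the median signal. That between active enhancers and facultative heterochromatin (1.47) was 0.96 with the larger pseudocount, 0.11 above the median signal, 1.21 without the added read and 0.98 at 400 to 600 bases. The input change (-0.11) was -0.032 with the larger pseudocount and 0.0044 with its own libraries only, the deposited column being a mean that includes those of 8 h.

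In place of 25362 risen regions, DESeq2 called 15287 (of 33322 tested) with the recovered depths and 800 (of 8687) with its own size factors, TMM 3521, and leaving out an 8 h library 19495 to 21525, where the spread came from the input libraries (biological coefficient of variation 25.3% against 10.5%). GATA6 exceeded input at 8 h in 7847 regions with TMM and 5230 with DESeq2's own factors, in place of 30548. Both assume that most of these regions do not change. The 17 input regions that fell became 10 in a fit of all 7 libraries. Among 62 named regions that fit kept 61 calls, Trim30a being lost (-0.68). With the spread from input, without the deeper library Trim30a reversed (0.056) and Ppia lost its call (1.95), and without the shallower one Prdm14 did (1.47) while Trim30a stood at -1.37. The cause of the other differences was not tested. The alternatives on width, input, added reads and the joint fit were chosen after seeing the data. No paired analysis was possible because the columns pool the libraries and the recovered libraries carry no replicate number.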

Other observations

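Input before Dox was uneven between its libraries. The strongest 10% of regions held 39.8% of region reads in the shallower library and 29.3% in the deeper one, beside 29.8% and 30.7% in the inputs at 8 h. Single loci stood out. The shallower input library before Dox had 169 reads (16.6 RPM) in the Gata6 exon region, where the deeper one had 31 reads (1.17 RPM) and the input libraries at 8 h had 0.935 and 0.755 RPM. The cause was not tested.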
